A study of Mus musculus with 50 samples.

Results

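Open chromatin was compared between stem cell-derived motor neurons grown with and without tetrodotoxin (TTX), a toxin that blocks voltage-gated sodium channels and so silences action potentials. The libraries were chosen by their labels: 2 ATAC-seq libraries of untreated cultures at day in vitro 28 (DIV28) and 2 of cultures kept in 1 µM TTX for the whole co-culture, 4 of the 22 ATAC-seq libraries of a series of 50. ATAC-seq marks accessible DNA by the cuts of a transposase. All 4 came from embryonic stem cells whose strain the labels give as C57BL/6- Chat-Cre;SUN1-GFP-3xMYC (the study's text names the tag Sun1-sfGFP-Myc), differentiated to motor neurons and co-cultured with mouse cortical astrocytes (postnatal day 2) and neurotrophic factors, so by their labels the groups differ in TTX alone. The nuclear tag is switched on by Cre from the *Chat* promoter, in cholinergic cells, and tagged nuclei were isolated. The labels name INTACT, an affinity purification, for all libraries, while the study's methods describe flow sorting of the GFP-positive nuclei for ATAC-seq. RNA of nuclei from the same culture conditions (2 libraries at DIV28, 3 with TTX) was used for the genes near the regions.

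Electrical activity opens calcium channels, and calcium signalling turns on a set of immediate early genes within minutes. Several of them encode subunits of AP-1, a dimer of FOS and JUN family proteins that binds the 7 bases TGANTCA (N is any base), and that with other factors opens enhancers, distal regulatory DNA often far from its gene. MEF2 proteins are another family whose action in neurons depends on calcium. Culture with TTX was part of the study to ask how far activity shapes the later part of maturation.

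Peaks are intervals in which cuts exceed the local background. The number of peaks was 224328 and 152667 in the untreated libraries and 217773 and 165926 with TTX, so library 1 of each group had the longer list. Median fold enrichment over background at the summit was 4.99 and 4.64 untreated and 4.57 and 4.20 with TTX. Read numbers are unknown, and a peak missing from a list lies below the calling limit (−log10 p of 2) and is not shown to be closed. With 2 libraries a group the smallest two-sided p of an exact permutation test is 0.333, so a value per ATAC-seq library, such as a share or a median, cannot pass such a test. The RNA filter was 5 CPM or more throughout some group of cultures. The motor neuron markers *Chat*, *Slc18a3*, *Slc5a7*, *Isl1* and *Prph* passed it in the DIV28 or TTX libraries. *Isl2* and *Mnx1* passed it only through DIV0 or DIV7. Of these 7 genes 6 had an accessible promoter in all 4 ATAC-seq libraries. Such a promoter was also found for 7 of 8 astrocyte genes and 2 of 6 microglial genes, although 0 microglial genes passed the RNA filter.

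Overlapping peaks of the 4 libraries merged into 292907 regions, of which 102068 (34.8%) had a peak in every library. A peak in both untreated libraries and neither TTX library was found in 8187 regions, called lost here, which is 6.17% of the 132709 regions shared by the untreated libraries. The reverse, called gained, held for 10317 regions, or 7.61% of the 135579 shared by the TTX libraries. These shares are the background rates of both calls over all regions.

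The same 4 libraries can be set against each other by replicate number. Regions found only in both libraries numbered 1 or only in both numbered 2 came to 27018 and 2462, together 29480, against 18504 lost or gained. Regions of the crossed pairs (one untreated, one TTX library of the other number) came to 3788 and 2405. With every list reduced to its 152667 highest peaks, lost and gained came to 8698 and 8726, the same-number pairs to 9794 and 7839, and the crossed pairs to 2332 and 2718. The patterns by treatment were thus more frequent than the crossed ones and about as frequent as those by replicate number once the lists had equal length. Both same-number counts moved strongly with list length, pair 1 downwards and pair 2 upwards.

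**Figure D1:**
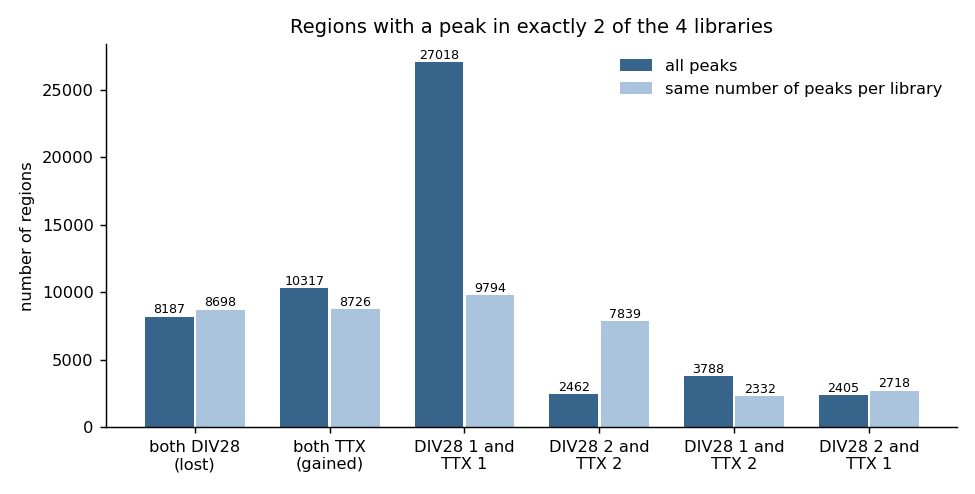
Number of merged regions with a peak in exactly 2 of the 4 ATAC-seq libraries (y axis), for each pair of libraries (x axis), with all peaks and with the same number of peaks per library. With equal lists the 2 treatment pairs (8698 and 8726) and the 2 same-number pairs (9794 and 7839) have like counts, and the crossed pairs have 2332 and 2718.

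Lost and gained regions were weak peaks next to the regions common to all libraries. The lower of the 2 −log10 p values had a median of 3.96 in lost and 3.73 in gained regions. In common regions the lower of the 2 untreated values had a median of 10.9. At least 10 in both libraries was reached by 353 lost and 220 gained regions. Median fold enrichment was 3.82 and 3.21 in lost regions and 3.36 and 3.17 in gained regions. Lost regions were distal, over 2000 bp from any start site, in 89.3% and gained regions in 93.3%, against 79.0% of common regions. Introns held 55.9% of lost and 48.1% of gained regions, and the median distance to a start site was 17355 bp and 30891 bp, against 14594 bp for common regions. The median GC content within 100 bp on each side of the summit was 45.8% in lost, 42.3% in gained and 47.8% in common regions.

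The sequences of strong lost and gained regions are shown here because AP-1 sites set the 2 groups apart. Each covers the summit and 50 bp on both sides, plus strand of mm10 (GRCm38), with every TGANTCA in capitals. First come 5 of the lost regions with the highest lower −log10 p among those that hold the sequence within 100 bp of the summit.
Lost, nearest gene *Fscb* (chr12:64682336-64682436): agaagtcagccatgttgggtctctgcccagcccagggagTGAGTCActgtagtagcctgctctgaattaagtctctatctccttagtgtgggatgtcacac
Lost, *Bank1* (chr3:136166849-136166949; the match lies beyond the printed bases): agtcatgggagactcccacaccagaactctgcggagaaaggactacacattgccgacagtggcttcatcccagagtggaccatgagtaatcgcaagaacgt
Lost, *Os9* (chr10:127103194-127103294): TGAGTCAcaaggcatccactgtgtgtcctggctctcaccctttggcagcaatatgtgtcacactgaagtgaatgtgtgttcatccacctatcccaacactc
Lost, *Gm32090* (chr13:107607512-107607612): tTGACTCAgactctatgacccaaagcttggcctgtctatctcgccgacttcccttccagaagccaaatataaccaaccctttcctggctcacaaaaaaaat
Lost, *D6Ertd474e* (chr6:143380611-143380711): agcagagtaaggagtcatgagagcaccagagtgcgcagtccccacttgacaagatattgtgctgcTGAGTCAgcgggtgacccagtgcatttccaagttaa
The 3 gained regions with the highest lower −log10 p follow, and none holds the sequence within 100 bp.
Gained, *Gm26555* (chr13:58287987-58288087): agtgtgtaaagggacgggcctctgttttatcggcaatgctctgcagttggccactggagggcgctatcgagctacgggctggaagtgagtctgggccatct
Gained, *Tdrd3* (chr14:87746237-87746337): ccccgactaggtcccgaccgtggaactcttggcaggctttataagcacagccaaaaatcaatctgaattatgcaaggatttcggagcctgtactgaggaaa
Gained, *Gm26820* (chr3:134654211-134654311): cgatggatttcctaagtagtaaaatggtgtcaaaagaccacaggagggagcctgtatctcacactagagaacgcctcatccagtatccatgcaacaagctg
In the printed *Fscb* region the centre of the match lay 8 bp from the summit.

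Regions lost with TTX carried the AP-1 sequence far more often than regions gained. TGANTCA, which reads the same on both strands, lay within 100 bp of the summit in 4139 of 8187 lost regions (50.6%) and 1362 of 10317 gained regions (13.2%). The share was 39.4% in regions common to all 4 libraries and 33.0% in all 292907 regions. In distal regions alone it was 51.8%, 13.4% and 45.3% for lost, gained and common regions. Regions of both untreated libraries and TTX library 1 alone held the sequence in 50.6%, and those with TTX library 2 alone in 39.7%. Regions of both TTX libraries held it in 26.6% when only untreated library 1 shared the peak, and in 17.6% when only untreated library 2 did. The share in lost regions was thus not particular to them. A match is a description of the DNA and not a measured binding site.

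The contrast was larger in stronger peaks. Common regions were classed by the lower −log10 p of the untreated libraries. Where the lower −log10 p lay between 2 and 5, the sequence was found in 43.1% of lost, 13.6% of gained and 27.4% of common regions. At 10 or more the shares were 68.0%, 8.64% and 43.4%. The order was the same in each class of GC content: below 40% GC it was 62.2%, 17.7% and 54.2% for lost, gained and common regions, and between 50% and 60% GC it was 39.1%, 6.61% and 33.2%. Matches sat near the summit: 25.5% of lost regions had one centred within 25 bp, against 5.18% of gained and 18.6% of common regions. More than 1 match was found in 509 lost and 62 gained regions. The middle base was C or G in 73.2% of matches in lost regions, 62.0% in gained and 77.3% in common regions.

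**Figure D2:**
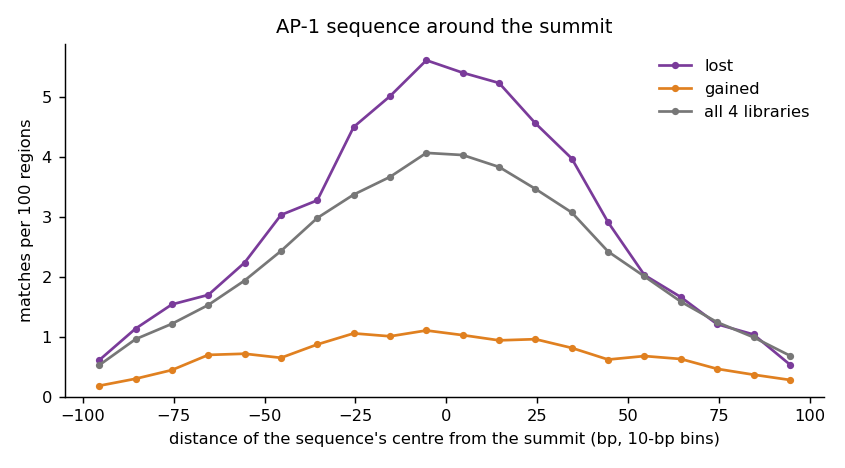
Matches to the AP-1 sequence per 100 regions (y axis) by distance of the match's centre from the summit in 10-bp bins (x axis), for lost, gained and common regions. Lost regions reach 5.61 matches per 100 regions next to the summit, and gained regions at most 1.10 in any bin.

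The libraries were also compared one with another, since replicates of a group differed too. Regions with a peak in an untreated library and none in a TTX library held the sequence in 34.8% to 42.8% over the 4 such pairs. With a peak in a TTX library and none in an untreated one it was 12.7% to 24.2%. The ranges do not overlap, but pairs within a group spanned from 17.4% (TTX library 2 and not 1) to 34.6% (untreated library 1 and not 2), which bridges them. Library 1 of each group, with the longer list, had the higher share in both within-group pairs.

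**Figure D3:**
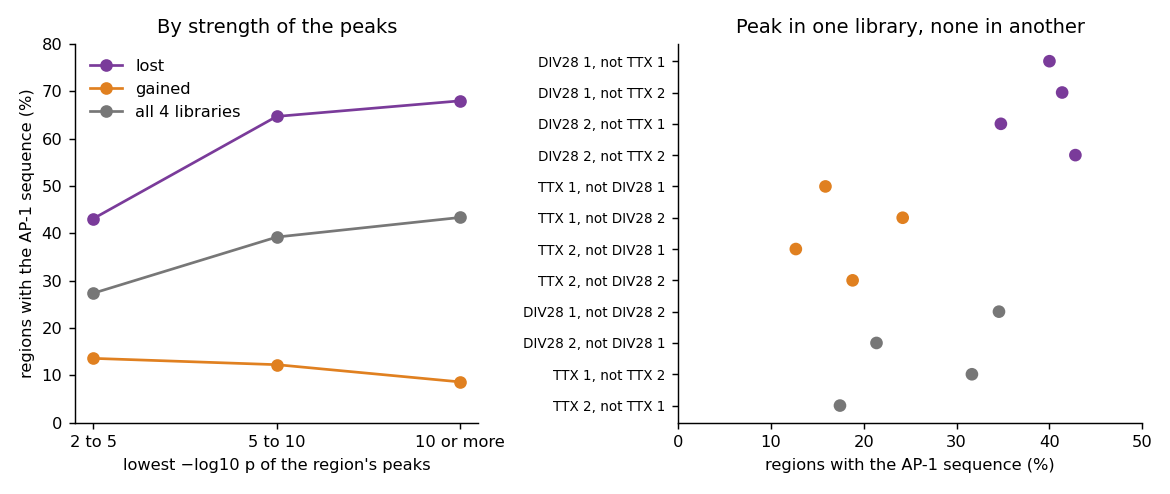
Share of regions with the AP-1 sequence (%), left by −log10 p for lost, gained and common regions, right for regions with a peak in one library and none in another. The −log10 p is the lower of the TTX libraries for gained regions, and of the untreated libraries for lost and common regions. Purple pairs on the right have the peak in an untreated library (34.8% to 42.8%), orange pairs in a TTX library (12.7% to 24.2%), and grey pairs are replicates of one group (17.4% to 34.6%).

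Taking the 50000 highest distal peaks of each library removed the difference in list length. The sequence was then found in 57.5% and 53.6% of peaks in the untreated libraries and in 47.5% and 40.1% with TTX. Both TTX values were below both untreated values. At DIV7 the shares were 35.1% and 38.3%, and at DIV0, when co-culture began, 8.67% and 8.29%. The TTX libraries thus lay between DIV7 and untreated DIV28.

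The signal within common regions showed the same order. In distal common regions the median log2 fold enrichment of regions with TGANTCA exceeded that of regions without it by 0.48 and 0.34 in the untreated libraries and by 0.23 and 0.04 with TTX, over 36525 and 44062 regions. The groups did not overlap, and the step between the nearest libraries of different groups was smaller than that between replicates. For MEF2 sequences the difference was −0.04 and 0.01 untreated and −0.10 and −0.11 with TTX. The groups stood apart for MEF2, EBF, homeodomain and NFI sequences too, and overlapped for the others compared, so standing apart was not particular to AP-1. The TTX mean minus the untreated mean was −0.27 for AP-1, −0.09 for MEF2, 0.11 for EBF, 0.08 for the homeodomain and 0.15 for NFI (73 regions). MEF2 sequences were found in 4.86% of lost, 3.12% of gained and 2.52% of common regions, and also in 4.77% of regions found in untreated library 2 alone. Sequences of the homeodomain (TAATTA) went the other way, in 3.87% of lost, 6.23% of gained and 3.72% of common regions, and EBF sequences in 0.574%, 1.25% and 0.850%.

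The test of signal in common regions depended on how it was fitted. Without pairing, limma on median-centred log2 fold enrichment called 0 of 102068 regions (0% at an adjusted p under 0.05), with 4650 lower (4.56%) and 4469 higher (4.38%) with TTX at an unadjusted p under 0.05. The smallest adjusted p was 0.18. On log2 of −log10 p it called 2 lower and 0 higher regions. Among the lower regions at the unadjusted limit 72.0% held TGANTCA, and among the higher 17.9%, against 39.4% of all tested. With the regions ordered by log2 difference into 10 classes of equal size, the share fell from class to class, from 65.98% in the class most reduced with TTX to 19.2% in the class most increased. The signal chose these regions, so their shares are a description.

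The regions with the lowest p show the size of the differences in single loci. In an intron of *Pemt*, which encodes an enzyme of phosphatidylcholine synthesis, fold enrichment was 18.2 and 10.2 untreated and 3.75 and 3.17 with TTX (chr11:59991348-59992017). This was a log2 difference of −1.90 ± 0.29 (SE, limma, adjusted p = 0.18), and the region holds TGANTCA. In an intron of *Cpq* fold enrichment was 16.3 and 10.7 untreated and 4.94 and 2.78 with TTX (chr15:33347035-33347640, −1.75 ± 0.28). A region 25.2 kb upstream of *Epm2a*, the gene of the glycogen phosphatase laforin, had 18.1 and 12.1 against 3.29 and 4.01 (chr10:11318000-11318553, −1.94 ± 0.30), without the sequence. Regions 457.2 kb from *Gm9908* and 8.5 kb from *Gm49018* had differences of −1.41 ± 0.22 and −1.54 ± 0.26, both with the sequence.

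In the other direction a region 81.7 kb upstream of *Adamts2*, a procollagen-processing protease, had fold enrichments of 3.14 and 3.21 untreated and 12.2 and 14.1 with TTX (chr11:50520081-50520736). The log2 difference was 2.13 ± 0.33 (SE, limma, adjusted p = 0.18). In an intron of *Tctex1d1* the values were 3.88 and 2.86 against 13.6 and 9.46 (chr4:103000049-103000807). A region 40.1 kb upstream of *Grb10*, an adaptor of insulin receptor signalling, had 6.10 and 4.64 against 16.4 and 11.9 (chr11:12078590-12079097), and of the 5 it was the one with TGANTCA. The other two lay 506.5 kb from *Gm40548* and in *Gm30835*. In each of these 10 regions the libraries of the 2 groups stood apart, which is what a low p selects.

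The 10 strongest lost loci had a lower −log10 p of 20.4 to 27.4, and 7 of them held the AP-1 sequence. The highest lay between genes, 207.7 kb upstream of *Fscb* (chr12:64682160-64682617), with a fold enrichment of 12.4 and 10.8 in the untreated libraries, and had no peak in any of the 18 other ATAC-seq libraries. The region in *Bank1* (chr3:136166757-136167099), a scaffold protein best known in B cells, had 10.1 and 8.69. The annotated gene *Gm31243* also spans its summit, which lay in an exon outside any coding sequence. In an intron of *Os9*, a lectin of endoplasmic reticulum quality control, fold enrichment was 14.4 and 9.64 (chr10:127103110-127103502), again with no peak in any other library.

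Other strong lost loci were an intronic region of *Gm32090* and one of *9430069I07Rik* within *Matn2*, which had no peak elsewhere, and regions near *Gm15319*, *Rubcnl*, *D6Ertd474e* and *Gm32405*. Those near *Gm15319*, *Rubcnl* and *Gm32405* lacked the sequence. Of the nearest genes 3 passed the RNA filter and 0 were called, among them *Gm15319* and *Os9* with log2 RNA changes of 0.42 and −0.093.

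The 10 strongest gained loci had a lower −log10 p of 18.6 to 25.01, and 0 held the AP-1 sequence. The highest lay in a coding exon, where the annotated genes *Gm26555* and *Kif27*, a kinesin, overlap (chr13:58287846-58288217). Its fold enrichments were 10.7 and 11.1 with TTX. It had a peak in 17 of the 18 other libraries. The region 207.2 kb past *Tdrd3*, a Tudor domain protein (chr14:87746155-87746598), had 7.70 and 12.1 and was a peak in 13 other libraries. That near *Gm48942* was one in 11.

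Other gained loci had few or no peaks at other ages. A region 33.5 kb from *Gm49054* (chr14:83906040-83906656; 7.31 and 12.3) and one 1.9 kb upstream of *Hsd17b3*, a steroid dehydrogenase (chr13:64090961-64091339; 7.07 and 8.70), had none. Intronic regions of *Asic2*, an acid-sensing sodium channel (chr11:81193429-81194053; 7.496 and 8.23), and *Kcnip4*, a subunit of A-type potassium channels (chr5:49259942-49260524; 9.08 and 8.96), were peaks at DIV7, as was one 357.4 kb from *Mdfic*. Of the nearest genes 4 passed the RNA filter, with log2 changes of 0.31 for *Tdrd3*, −1.42 for *Mdfic*, 0.07 for *Asic2* and 1.14 for *Kcnip4*, and 0 were called.

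Presence at other ages separated lost from gained regions. Of lost regions 24.0% had a peak at DIV0 or DIV7 and 43.6% in some library taken in vivo (14 libraries), and 47.0% had none in any of the 18. Of gained regions 38.4% had a peak at DIV0 or DIV7, 60.2% in vivo and 30.4% nowhere else. For common regions, which are stronger, the shares were 74.5%, 80.4% and 9.55%. In each of the 18 libraries gained regions were present more often than lost ones. The largest gap was at E13.5, with 32.9% and 33.4% of gained and 13.8% and 12.2% of lost regions. At 2 years the shares were 20.7% and 24.2% against 17.6% and 19.5%.

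Lost regions found in none of the other libraries held TGANTCA in 59.8%, and those found in any in 42.4%. For gained regions the shares were 19.2% and 10.6%, and for common regions 57.5% and 37.5%. In all 3 classes the sequence was thus more frequent in regions without a peak at other ages.

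**Figure D4:**
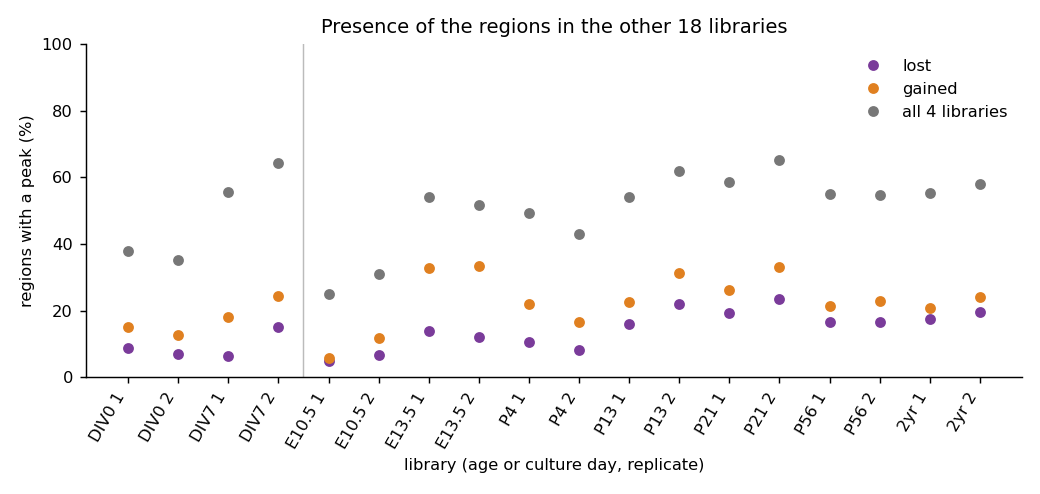
Share of lost, gained and common regions with a peak (y axis, %) in each of the other 18 ATAC-seq libraries (x axis), in vitro on the left of the line and in vivo on the right. Gained regions lie above lost regions in every library, by most at E13.5 (32.9% and 33.4% against 13.8% and 12.2%).

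Genes were assigned to a region when they had the nearest start site, within 50 kb. This gave 4864 genes to 6064 lost regions and 5102 genes to 6343 gained regions. Most of these genes had a single region, and 917 had at least 2 lost and 932 at least 2 gained. The genes with the most lost regions were *Ank2* (10), an ankyrin that anchors membrane proteins to the axonal skeleton, *Kalrn* (9), a guanine nucleotide exchange factor of dendritic spines, and with 7 each *Rbfox1*, a neuronal splicing regulator, *Sorcs2*, a sorting receptor for neurotrophins, and *Gabbr2*, a subunit of the GABA-B receptor. They also had 40, 56, 47, 14 and 33 regions common to all 4 libraries. AP-1 sequences lay in 2, 5, 1, 2 and 1 of their lost regions.

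The most gained regions were at *Macrod2* (7), an ADP-ribosyl hydrolase. The next 9 genes had 6 each, and the first 4 of them by identifier were *App*, the amyloid precursor, *Dtna*, a dystrobrevin, *Ptprd*, a synaptic receptor phosphatase, and *Golim4*, a Golgi protein. Near *Golim4* lay the strongest of these, 44.4 kb upstream (chr3:76001144-76001459), with fold enrichments of 7.90 and 8.72 and a peak in 13 other libraries.

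The RNA of these 10 genes did not pass the limits of the study, an unadjusted p under 0.001 and at least 2-fold in edgeR. Normalised counts of *Kalrn* were 2506 and 2884 untreated and 1635.1, 1655 and 1860 with TTX (log2 change −0.66 ± 0.24, SE, adjusted p = 0.48). *Sorcs2* had 189 and 209 against 114, 112 and 94.9 (−0.90 ± 0.29, adjusted p = 0.37). *Rbfox1* had 333 and 411 against 229, 238 and 264 (−0.62 ± 0.24, adjusted p = 0.53). In these 3 every TTX library was below every untreated library, which held for 9.49% of the 12992 genes tested. For *Ank2* (0.07), *Gabbr2* (−0.02), *Macrod2* (−0.06), *App* (−0.03), *Dtna* (0.28), *Ptprd* (0.07) and *Golim4* (−0.09) the groups overlapped.

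Across all genes the RNA difference near lost and gained regions was small. The test called 47 genes lower (0.362%) and 31 higher (0.239%) with TTX among 12992. For RNA, cultures of one number were grown in parallel. On libraries 1 and 2 of each group only, with the culture pair as a block, the test called 138 and 123 of 10973 genes. It called 44 of the 47 and 22 of the 31 again, on part of the same libraries. Without untreated library 2, the deepest, it called 15 and 10. Of 2573 tested genes with at least 1 lost region 17 were called lower (0.661%) and 6 higher (0.233%). Of 2267 with a gained region 12 (0.529%) and 4 (0.176%) were. The median log2 change was 0.0027 near lost regions, 0.041 near gained regions and 0.016 over all tested genes. Between single TTX libraries the first of these medians varied by an SD of 0.042 and the next by 0.033 (n = 3).

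Genes with several regions of one kind and none of the other had medians farther from that of all genes. The median log2 change was −0.11 for 71 genes with at least 3 lost and no gained regions and 0.20 for 58 genes with at least 3 gained and no lost ones, and 67.6% and 27.6% of them had a log2 change below 0. In both sets 0 genes were called by edgeR, where 0.362% and 0.239% of all genes were. With 1 region only the medians were −0.011 (1387 genes) and 0.031 (1164). These genes also had more common regions. Among genes with 9 or more of those, the median was −0.049 with lost regions only, 0.12 with gained only and −0.019 with neither, and among genes with 4 to 8 it was −0.0038, 0.029 and −0.022. The share of genes called lower also varied with the number of common regions. With lost regions only and with neither it was 0.277% and 0.219% at 1 to 3 common regions. At 4 to 8 it was 1.02% and 0.756%, and at 9 or more 0.344% and 0.412%.

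Seen from the RNA, 17 of the 47 lower genes (36.2%) had a lost region and 12 (25.5%) a gained one, against 19.8% and 17.4% of all tested genes. Of the 31 higher genes 6 (19.4%) had a lost and 4 (12.9%) a gained region. These shares were not split by the number of common regions. The signal of common regions near the lower genes had a median log2 difference of 0.026 (46 genes), near the higher genes 0.033 (27 genes) and near all tested genes 0.038.

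Of the 22 lower genes with a lost or gained region, the 12 with the lowest p are described. They were led by *Trank1*, which encodes a protein with ankyrin and tetratricopeptide repeats. Its normalised counts were 1240 and 1670 untreated and 140, 226 and 194 with TTX (log2 change −2.96 ± 0.31, SE, adjusted p = 0.0047, edgeR). A lost region 5.4 kb upstream of a *Trank1* start site (chr9:111306044-111306659) had fold enrichments of 5.60 and 4.60 and held TGANTCA, and had peaks at P21, P56 and 2 years. Both gained regions of the gene lay in introns and lacked the sequence (chr9:111351528-111352001 and chr9:111314055-111314505).

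*Pld5*, an inactive member of the phospholipase D family, had 157 and 179 against 16.7, 19.6 and 32.0 (−2.90 ± 0.38, adjusted p = 0.019). Its 2 lost regions lay in introns, 1.1 kb and 11.5 kb from a start site (chr1:176215019-176215242 and chr1:176202230-176202674), and both held TGANTCA. Its gained region (chr1:176223146-176223617) was stronger, with 6.91 and 7.14, and had a peak in 13 of the other libraries. The predicted gene *Gm3294* had 143 and 170 against 9.54, 0.503 and 2.29 (−5.48 ± 0.71, adjusted p = 0.019), with a lost region holding the sequence 11.6 kb upstream. *Slc16a3*, the lactate exporter MCT4, had 67.3 and 37.1 against 2.39, 0 and 4.57 (−4.78 ± 0.74, adjusted p = 0.046) and a lost region without the sequence 1.0 kb past its start. In all 4 genes the groups lay far apart.

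A further 8 of the lower genes had adjusted p-values from 0.065 to 0.077. *Pik3r5*, a regulatory subunit of PI3-kinase gamma, had 231 and 326 against 31.0, 51.3 and 22.9, and a lost region with TGANTCA 4.8 kb upstream had fold enrichments of 6.84 and 5.69 (chr11:68426888-68427428). *Kcnn2*, the calcium-activated potassium channel SK2, had 150 and 156 against 45, 42 and 40, with 2 lost intronic regions. *Vip*, the vasoactive intestinal peptide, had 1148 and 1271 against 431, 247 and 154, with a lost region 7.8 kb past the start. *Nfatc2*, a calcineurin-dependent transcription factor, had 54.3 and 70.3 against 7.16, 3.02 and 0, with a lost region (4.99 and 5.72) in an intron and a gained one 24.9 kb upstream. *Cabp1*, a neuronal calcium-binding protein, had 496 and 500 against 235, 196 and 170. *Rreb1*, *Bcor* and *Tes* changed by −1.92, −1.43 and −1.67 on the log2 scale. Together these 12 genes had 14 lost regions, 7 of them with TGANTCA, and 6 gained regions, 1 of them with it, whereas all 22 had 21 lost and 15 gained regions. With the culture pair as a block 11 of the 12 were called, all but *Bcor*. That fit used part of the libraries in which the 12 had been chosen by p, so its calls are no independent evidence. It called 138 genes lower and 123 higher of 10973.

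Only 7 higher genes had a lost or gained region, and their adjusted p-values ran from 0.073 to 0.15. *Plch1*, a phospholipase C, had 270 and 250 against 691, 594 and 811, with 1 region of each kind. *Cntn3*, a contactin adhesion molecule, had 8.68 and 22.4 against 54.9, 112 and 163 and 2 gained intronic regions, 1 with TGANTCA. *Cntnap4*, a contactin-associated protein, had 10.9 and 2.10 against 38.2, 30.7 and 64.0, with 2 lost regions, both with the sequence, and 2 gained regions without it. *Maml2*, a Notch coactivator, had 3.26 and 8.68 against 26.2, 39.2 and 36.6, with 1 lost and 2 gained regions. *Tm4sf1*, *Ndnf* and *Plxnb1* had 1 lost region each and no gained region, while their RNA was higher by 2.66, 4.995 and 2.07 on the log2 scale. RNA and region thus went in opposite directions at these 3 genes. In the blocked fit *Plch1*, *Tm4sf1*, *Cntn3* and *Maml2* were called and the other 3 were not tested in it. These calls too come from part of the libraries in which the genes were chosen.

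**Figure D5:**
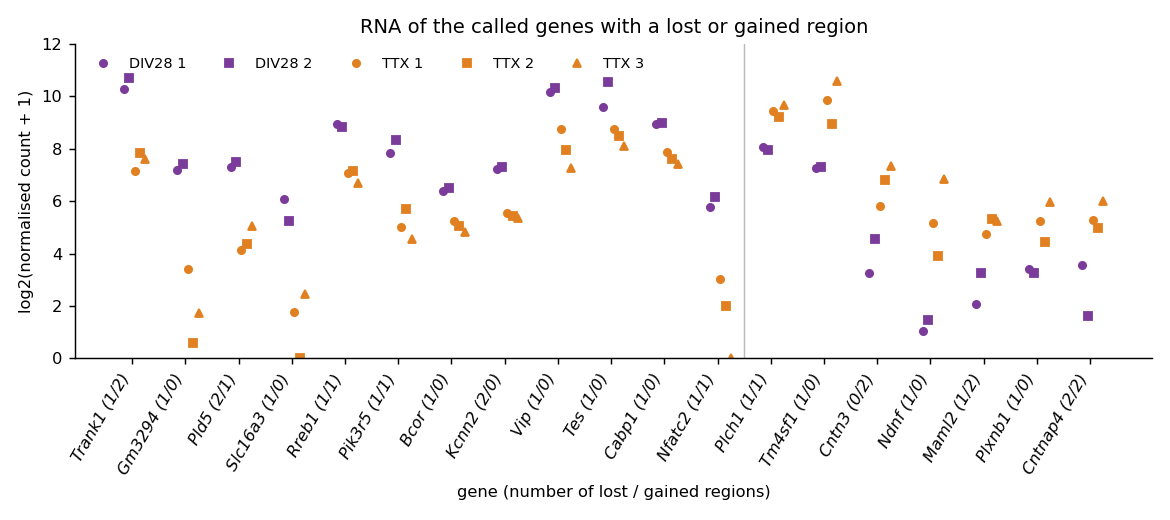
RNA of genes with a lost or gained region, the 12 with the lowest p of the 22 called lower (left of the line) and all 7 called higher (right), as log2 of the normalised count plus 1 (y axis), 1 point per library, with the number of lost and gained regions beside each name. In all 19 genes no TTX library overlaps an untreated one, which is what the call selects.

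RNA of other cell types moved between the libraries beside these values. The summed normalised counts of 5 fibroblast genes were 286 and 179 untreated and 911, 945 and 5.71 with TTX, and *Col1a1* and *Col1a2* were called higher by edgeR with the culture pair as a block, which leaves out TTX library 3. Those of 8 astrocyte genes were 372 and 426 against 271, 376 and 749, with *Gfap* at 163 and *Aqp4* at 102 in TTX library 3 and at most 18.1 in the other libraries. Other genes of this list went the other way. *S100b* had 39.1 and 22.4 against 4.77, 0 and 4.57, and *Aldh1l1* 26.0 and 35.0 against 10.7, 7.04 and 25.1. Of 7 astrocyte genes tested 3 had a log2 change below 0. The microglial genes *C1qa*, *C1qb*, *Tyrobp* and *Itgam* were at 0 in both untreated libraries and at most 1.14 with TTX, and the sum of all 6 microglial genes, mostly *Cx3cr1*, was 20.6 and 29.6 against 14.3, 1.51 and 17.1. The 6 oligodendrocyte genes summed to 53.2 and 53.0 against 33.4, 60.8 and 77.7, the 5 genes of other neurons to 602 and 522 against 472, 235 and 294, and 4 genes of pluripotent or dividing cells to 3.26 and 12.6 against 9.54, 38.2 and 6.86. The part of these cells in the regions and RNA calls was not tested, and in bulk nuclei fewer cells of a type and less RNA per cell cannot be told apart.

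The 9 genes of AP-1 subunits themselves had 27 common regions, 3 lost and 1 gained. The lost ones lay 22 kb past *Fos* (chr12:85496871-85497164; fold enrichment 2.34 and 2.25), in the coding exon of *Junb* (chr8:84977355-84977971; 1.42 and 1.72) and 4.4 kb upstream of *Batf3* (chr1:191093220-191093796; 3.79 and 2.07), the last with TGANTCA. The gained one lay in an intron of *Atf3* (chr1:191203590-191203823; 4.74 and 4.36). Of 5 genes tested for RNA 0 were called by edgeR, 4 had a log2 change below 0 and the median was −0.59. *Fosl2* had normalised counts of 370 and 534 against 199, 276 and 143 (−1.14 ± 0.31, not called), *Jun* 2843 and 3643 against 2346, 2542 and 1599, and *Junb* 83.6 and 82.0 against 58.4, 52.3 and 25.1. In these 3 of 5 genes the groups did not overlap, against 9.49% of all genes. *Fos*, below the filter, had 20.6 and 26.3 against 9.54, 0 and 4.57.

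Of the MEF2 genes *Mef2a* had a lost region 12.3 kb upstream (chr7:67384915-67385389), with fold enrichments of 10.7 and 5.72, TGANTCA and no peak in any other library. Its RNA was 780 and 1149 against 843, 1159 and 1404. *Mef2c* had a lost and a gained region in introns (chr13:83652025-83652473 and chr13:83518079-83518653), and the gained one was a peak in 16 of the 18 other libraries. None of the 3 MEF2 genes tested was called by edgeR, and the libraries overlapped for *Mef2a* and *Mef2d*. *Mef2c* had 1.09 and 3.89 against 7.16, 6.54 and 5.71 (log2 change 1.13 ± 0.80), every TTX library above, where 8.74% of all genes were.

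The other 21 immediate early genes had 75 common, 5 lost and 6 gained regions. Lost regions lay near *Btg2* (12.9 kb upstream, with TGANTCA), *Ier5*, *Per1* (1.8 kb from a start site, fold enrichment 3.06 and 2.46) and *Sik1* (2). *Nr4a3*, a nuclear receptor induced by activity, had 3 gained intronic regions and *Sik1*, *Klf6* and *Gadd45g* 1 each, all without the sequence. Of 15 tested genes 0 were called by edgeR, 9 were below 0 and the median log2 change was −0.75, against 0.02 over all tested genes. That median includes *Egr1*, *Nr4a1* and *Ier2*, which passed the RNA filter only through DIV0 or DIV7. Their log2 changes were −1.25, −1.97 and −1.46, from normalised counts of at most 32.0 in these libraries. The median without these genes was not taken. *Btg2*, an antiproliferative gene, had 59.7 and 114 against 23.9, 34.7 and 26.3, and *Npas4*, a factor induced selectively by calcium entry, 43.4 and 36.5 against 10.7, 16.6 and 22.9. With the culture pair as a block *Btg2* was called lower (log2 change −1.55, edgeR). In 5 of the 15 every TTX library was below, and in 2 above, the untreated ones, where 9.49% and 8.74% of all genes were.

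The 20 late effector genes had 67 common, 2 lost and 4 gained regions. *Bdnf*, the brain-derived neurotrophic factor, had one of each, 47.1 kb and 34.4 kb past a start site (chr2:109756422-109756656 and chr2:109743644-109744023). The lost one had fold enrichments of 4.25 and 4.64 and peaks at DIV7, the gained one 5.73 and 3.94 and peaks in 14 other libraries. *Crh* also had one of each, and *Sst* and *Cort* 1 gained region. The median log2 RNA change of 13 tested genes was 0.02, with 0 called by edgeR, where 0.362% (lower) and 0.239% (higher) of all genes were. In 5 of the 13 every TTX library was below the untreated ones (*Scg2*, *Rgs2*, *Pcsk1*, *Pim1* and *Crh*). In 1 every TTX library was above (*Inhba*). Over all genes 9.49% were below and 8.74% above. *Bdnf* RNA was 54.3 and 44.9 against 68.0, 26.6 and 86.9, which overlapped, while *Rgs2*, a regulator of G protein signalling, had 107 and 127 against 59.6, 27.7 and 44.6 and was called lower with the culture pair as a block (log2 change −1.55, edgeR).

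TTX acts on the proteins of the next list. The 12 voltage-gated sodium channel subunit genes had 69 common, 4 lost and 4 gained regions, and 0 of these 8 held TGANTCA. Lost regions lay in introns of *Scn1a* (chr2:66340129-66340353), *Scn2a* (chr2:65705767-65706002) and *Scn8a* (chr15:101001751-101002369; 4.80 and 4.20) and 4.1 kb upstream of *Scn2b*, and none of the 4 had a peak in another library. Gained regions lay at *Scn2a*, *Scn8a* and *Scn9a* (2). Of 8 tested genes 0 were called by edgeR without the culture pair, and the median log2 change was 0.06. In 2 of the 8 every TTX library was below, and in 2 above, the untreated ones, where 9.49% and 8.74% of all genes were. With the pair as a block *Scn1a* was called lower (log2 change −1.19, edgeR) and *Scn3b* higher (1.03). *Scn1a* had 854 and 1257 against 389, 533 and 762, and the subunit *Scn3b* 103 and 62.8 against 210, 129 and 243.

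Among genes the study used as reporters of maturation, *Spp1*, a secreted phosphoprotein, had 1 lost region 5.6 kb past its start (chr5:104441652-104443074; 2.82 and 3.32), with no peak elsewhere, and *Thy1*, a surface glycoprotein, had neither. Normalised counts of *Spp1* were 5279 and 6517 against 3545, 3223 and 1645 (log2 change −1.08 ± 0.34, not called by edgeR), and those of *Thy1* 904 and 642 against 1163, 650 and 455. *Trank1* and *Pld5*, described above, were put in this list here with earlier results of these data known, so their change in it is no independent evidence.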

How the data were processed

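ATAC-seq and RNA-seq libraries of nuclei from DIV28 cultures with and without TTX were grouped by their labels. For ATAC-seq the authors aligned reads to mm10 with bwa mem, removed duplicates and called peaks per library with MACS2 2.2.7.1 at a p limit of 0.01. The deposited lists give each summit a fold enrichment, which is a ratio to local background. The −log10 p-value and −log10 q-value in the deposited lists are MACS2's own. For RNA-seq the authors deposited expected counts, estimated per gene with RSEM 1.3.0 (4206282 to 21823492 counts in the 5 libraries used). Exclusion of blacklisted regions was not repeated here. An RNA library labelled DIV0 whose deposited file name gives DIV28 was left out. The study's legend lists more RNA libraries at DIV28 than were used here, so the untreated group may lack a replicate.

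Per interval the summit with the highest −log10 p was kept, on the autosomes and sex chromosomes. Peaks overlapping by at least 1 bp were merged, and start sites came from GENCODE vM21. TGANTCA and the other sequences were searched on both strands within 100 bp of the highest summit. Signal was tested with limma 3.58.1, adjusted by Benjamini-Hochberg. RNA counts were rounded and tested with edgeR 4.0.16's quasi-likelihood test over 9 in vitro libraries, keeping genes at 5 CPM or more throughout some group. Normalised counts are divided by median-of-ratios factors. The labels name replicates but not separate cultures, so p-values measure the spread between these libraries. Fits were tested on simulated data, where the signal fit recovered directions but called none of the planted differences, so its lack of calls does not show that regions were alike. Merging was checked against bedtools 2.31.1.

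Cultures numbered alike were grown in parallel for RNA, as the study's sample notes say. Deviations of libraries 1 and 2 from their group means correlated at 0.481. For ATAC-seq nothing says so. Named were the 10 strongest lost and gained regions, the 5 genes with most of each, up to 12 genes called lower and 12 higher that have a region, the 5 lowest p in signal each way, and all regions at listed genes. One of these regions is not reported here. Members, lists and tests were chosen with earlier results of these data known. Shares per pair of libraries, per GC class, in the highest distal peaks and per class of signal were added after the files were seen. Alternatives changed peak limits, list lengths, overlap, windows, scaling, filters and tools, and left out each library.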

Additional observations from a re-analysis of the deposited data

How the results depend on the processing

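Peak limits, overlap and list length kept the counts of lost and gained regions within 1.5 times, except that a −log10 p of at least 5 gave 4823 gained regions and the 100000 highest peaks set against all peaks gave 1050 lost and 897 gained. Leaving out 1 library gave 11201 to 44616 lost and 13840 to 39894 gained regions (lost 17378 without untreated library 1, 44616 without untreated library 2 and 27955 without TTX library 1, gained 30147, 28395 and 39894 without untreated library 1, TTX library 1 and TTX library 2), by construction, since fewer libraries must agree. TGANTCA was found in 39.6% of lost regions within 50 bp of the summit and in 58.5% of those with a −log10 p of at least 5, and in 57.45% with equal list lengths, and the share in gained regions moved less than its spread over pairs of libraries. The median log2 RNA change near lost regions was −0.012 within 10 kb and −0.012 for regions with a −log10 p of at least 5, an opposite sign to the value within 50 kb but less than the SD between libraries away. The signal test called 2 lower regions on log2 of −log10 p. With the replicate block it called 2362 lower and 2235 higher, where deviations of same-numbered ATAC-seq libraries correlated at 0.372 and only the number is shared. Without 1 library, with the lone sample assumed to vary like the others, it called 11 to 610 lower and 52 to 360 higher. RNA calls were 10 lower and 3 higher at an adjusted p under 0.05, 166 and 235 without the CPM filter, 74 and 112 with DESeq2, 138 and 123 with the replicate block, and 20 higher in a fit of the DIV28 and TTX libraries alone. Without 1 library they were 15 (without untreated library 2, the deepest) to 61 lower and 10 (also without that library) to 56 higher, with 19 higher without untreated library 1, 56 without TTX library 1 and 48 without TTX library 2. The causes were not tested. The peak lists hold no read numbers, so the part of depth in these counts was not tested, and library 2 of each ATAC-seq group had fewer peaks.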

Other observations

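Lost and gained regions also lay at markers of motor neurons and of other cell types. *Chat*, the acetylcholine-synthesising enzyme, had a lost intronic region (chr14:32455031-32455402) with fold enrichments of 4.37 and 2.86 and peaks in 13 of the 18 other libraries, and its normalised RNA counts were 498 and 343 untreated and 247, 147 and 93.7 with TTX (log2 change −1.38 ± 0.36, SE, not called by edgeR without the culture pair, and called lower with it as a block, −1.12). *Isl2*, a LIM homeodomain selector, had lost regions 6.2 kb and 2.6 kb upstream and a gained one within *Scaper*. *Isl1* had 3 gained regions and no lost one, 2 of them peaks at DIV0. *Mnx1* had 1 lost and *Slc5a7*, the choline transporter, 1 gained region. Over the 7 motor neuron markers there were 4 lost and 5 gained regions beside 24 common ones, and 1 lost and 0 gained ones held TGANTCA.

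The glutamate transporters of astrocytes had regions of both kinds. *Slc1a2* had 2 lost and 3 gained and *Slc1a3* 2 gained, 1 of them 0.2 kb from a start site (chr15:8709535-8709922), with fold enrichments of 2.64 and 2.78 and a peak in 11 other libraries. *Slc1a3* RNA was 11.9 and 14.1 untreated and 28.6, 93.0 and 145 with TTX, called higher by edgeR with the culture pair as a block (log2 change 2.16) and not without it, and *Slc1a2* was called lower in that fit (−1.14). The GABA-synthesising enzymes *Gad1* and *Gad2* had 1 lost region each, that of *Gad2* with TGANTCA (chr2:22651897-22652260; 5.18 and 4.64), and *Slc17a6*, a vesicular glutamate transporter, 2 gained ones. *Cx3cr1* and *Csf1r*, receptors of microglia, had 1 lost region each with TGANTCA, in introns, although 0 of the 6 microglial genes passed the RNA filter.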
